A study of Mus musculus with 27 samples.

Results

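The mouse genes of the major histocompatibility complex (MHC) and of antigen presentation were followed through early liver regeneration. Members were the protein-coding genes of the deposited expression table whose symbol starts with H2-, together with B2m, Cd74, Tap1, Tap2, Tapbp, Ciita, Nlrc5 and Erap1. The rule found 42 genes of 54532 in the table, and 37 of them lie on chromosome 17. They comprised 24 class I heavy chain genes, 9 class II chain genes, the class II partner Cd74, 5 genes of class I assembly (B2m, Tap1, Tap2, Tapbp, Erap1), 2 regulators (Nlrc5, Ciita) and H2-Ke6, which encodes a steroid dehydrogenase and no presenting chain. The rule uses symbols and gene type alone, but it was proposed with earlier results of these data known.

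The study measured polyadenylated RNA in 27 liver libraries of wild-type C57/BL6J mice to follow gene expression in the proliferative phase after removal of liver tissue. The 5 sham libraries came from mice with a sham operation, and no sampling time is given for them. The 7 PHx24 and 7 PHx48 libraries came from mice sampled 24 h and 48 h after 70% partial hepatectomy, with no etomoxir. The 4 PHx24_ETO and 4 PHx48_ETO libraries came from resected mice that also received etomoxir, an inhibitor of the enzyme that lets long-chain fatty acids enter mitochondria. It was injected intraperitoneally at 12.5 mg/kg 4 h before resection, with another dose 24 h after resection in the mice kept to 48 h. The labels name no vehicle for the mice without etomoxir, and they give no age. Nor do they say that every library came from its own animal, and the p-values then describe only how much these libraries vary.

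Class I molecules pair a heavy chain with beta-2 microglobulin (B2m) and carry peptides that the transporter Tap1/Tap2 brings into the endoplasmic reticulum, where tapasin (Tapbp) loads and Erap1 trims them. Nearly all cells make them, hepatocytes included, and Nlrc5 drives their transcription. Class II molecules are made mainly by dendritic cells, B cells and macrophages, travel with the invariant chain (Cd74), exchange their placeholder peptide with the help of H2-DM, and depend on Ciita for transcription.

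The libraries held 14903757 to 18446372 counts. All 8 hepatocyte markers listed were tested, and their sum ranged from 23632 to 65618 FPKM over the libraries. FPKM here are fragment counts divided by gene length and library size, scaled by the authors so that a typical gene is level between libraries. Transcripts of other tissues stood apart in 4 libraries: 12 skeletal muscle genes summed to 5082 FPKM in sham 1, 1921 in PHx24 1 and 610.3 in PHx48 3, and 10 exocrine pancreas genes summed to 1068 FPKM in sham 2. In sham 2 a list of 10 gut epithelium genes, chosen after the data were seen, also reached 400.2 FPKM, against 62.1 to 100.3 in the other sham libraries. Smaller sums of the kind were 88.1 FPKM of muscle genes in PHx48_ETO 4 and, for neutrophil markers, 80.5 FPKM in PHx24 2. The exocrine pancreas genes also reached 171.1 FPKM in the highest PHx48 library, against a median of 9.42 in that group. A list of 6 adipocyte markers summed to 193.6 FPKM in sham 1 and 139.2 in PHx48 3, mostly Cfd. It also summed to 163.9 FPKM in PHx24_ETO 2, of which Cidec, a lipid droplet gene, made 163.6, while the adipocyte hormone Adipoq reached at most 0.171 FPKM and Lep was at 0 in that group. Values without sham 2 or without the 4 libraries with other tissue are given below where they end a call or move a class II fold change.

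Of the 42 members, 23 reached 1 FPKM in at least 4 libraries and were tested; a gene that reaches this level through 1 group alone enters the test by way of that group. The tested members were 11 class I chain genes, 5 class II chain genes, Cd74, all 5 assembly genes and Nlrc5. H2-DMa and H2-DMb1 each passed in 13 libraries, among them all 5 sham libraries, and H2-T24 passed in 19. The other 19 were not tested: H2-Q2, H2-T3, H2-M2, H2-M5, H2-M9, H2-M10.2 and H2-M10.6 of class I, H2-DMb2, H2-Ob, H2-Oa and H2-Eb2 of class II, Ciita, H2-Ke6, and 6 class I genes listed at 0 in every library (H2-M1, H2-M11, H2-M10.1, H2-M10.3, H2-M10.4 and H2-M10.5). The H2-M10 genes are known from the vomeronasal organ. Without counting H2-Q2 and H2-T3, no untested member reached 1 FPKM in any library.

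In sham, B2m had the highest mean level per length, 2047 ± 459.7 FPKM (mean ± SD, n = 5). The classical heavy chain H2-K1 had 668 ± 79 FPKM and the liver-secreted class I chain H2-Q10 624 ± 73.1 FPKM, which overlap within their spread. H2-D1, the other classical heavy chain, followed at 254 ± 23.7 FPKM and H2-T23, the Qa-1 chain that presents leader peptides of other class I molecules to NK cell receptors, at 91.5 ± 14 FPKM. Cd74 at 66.5 ± 49.1 FPKM was the most abundant class II gene, above H2-Ab1 (23.4 ± 22.6), H2-Eb1 (22 ± 13.4) and H2-Aa (18.3 ± 16.7), and these last 3 did not differ beyond their spread.

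Some members of both classes share a promoter arrangement, which is shown for genes that the results turn on. RefSeq promoter sequences (GRCm38.p6) were matched by symbol for 35 of the 42 members. Each line below gives the 140 bases from 150 to 11 bases before the start site, 5′ to 3′ on the gene's strand. Capitals mark TGACG (the core of the X2 box), ATTGG or its reverse CCAAT (the Y box), and the core of the interferon-stimulated element (GAAA, any 2 bases, GAAA). B2m, H2-K1 and H2-Aa fell, H2-Q6 and H2-Q7 rose at 48 h, and H2-Q10 is the abundant liver chain.
B2m, chr2:122147537-122147676, plus strand: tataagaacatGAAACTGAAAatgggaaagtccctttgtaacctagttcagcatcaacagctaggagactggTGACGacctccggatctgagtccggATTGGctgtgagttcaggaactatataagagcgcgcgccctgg
H2-K1, chr17:34000358-34000497, minus strand: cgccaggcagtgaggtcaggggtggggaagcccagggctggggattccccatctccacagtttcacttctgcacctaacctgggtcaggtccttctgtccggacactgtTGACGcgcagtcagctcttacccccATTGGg
H2-Q6, chr17:35424700-35424839, plus strand: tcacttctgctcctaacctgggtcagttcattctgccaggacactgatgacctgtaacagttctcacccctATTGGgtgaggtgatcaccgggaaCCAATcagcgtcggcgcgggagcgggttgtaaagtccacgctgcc
H2-Q7, chr17:35439005-35439144, plus strand: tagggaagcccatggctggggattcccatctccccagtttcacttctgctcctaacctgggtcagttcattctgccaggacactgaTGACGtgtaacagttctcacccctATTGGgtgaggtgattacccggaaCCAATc
H2-Q10, chr17:35469939-35470078, plus strand: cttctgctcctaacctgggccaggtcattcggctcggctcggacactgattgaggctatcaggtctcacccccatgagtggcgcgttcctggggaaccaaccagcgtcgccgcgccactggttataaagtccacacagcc
H2-Aa, chr17:34287834-34287973, minus strand: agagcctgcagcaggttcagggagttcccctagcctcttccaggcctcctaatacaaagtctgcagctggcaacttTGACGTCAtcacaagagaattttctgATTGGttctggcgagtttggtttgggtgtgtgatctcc
Searched over 250 bases before the start site and on both strands, ATTGG stood in 15 of the 17 tested members with a promoter sequence, against 33.8% of 32851 promoters. A member counts if any of its promoter sequences holds the motif, while the percentages are over single promoters, so the units differ. H2-K1 and H2-DMa have more than 1 sequence each, and H2-DMa held ATTGG in only 1 of them. TGACG stood in 9 of the 17, against 17.8% of promoters, and the interferon-stimulated core in 3 (B2m, H2-T22 and H2-T23), against 2.98%. A TGACG followed on the same strand by ATTGG, with 23 to 27 bases between their starts, stood in 6 of the 17 (B2m, H2-K1, H2-D1, H2-Q7, H2-M3 and H2-Aa), against 0.247% of promoters. That spacing was chosen after these sequences were seen. The distance was 25 bases in B2m and H2-K1, 24 in H2-Q7 and 26 in H2-Aa. H2-Q6 lacked TGACG, and H2-Q10 held none of these letters in the stretch shown. The interferon gamma GAS motif (TTC, any 3 bases, GAA) stood in 1 of the 17 (H2-M3), against 7.02% of promoters. A match is a description of letters, not a bound site, and the motifs can overlap.

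Livers after resection were set against sham, which asks how expression moved during early regeneration. The class II genes and Cd74 fell at both 24 h and 48 h, Cd74 being 4.88 and 4.83 times lower than in sham, while most class I chains fell less or were not called. At 24 h, 12 of the 23 tested members fell and 0 rose, where 15.8% of the 12376 tested genes fell and 19.1% rose. At 48 h, 10 fell and 2 rose, where 17% of tested genes fell and 19.5% rose. The 5 class II chain genes fell at both times, with a median log2 fold change of -2.02 at 24 h and -2.05 at 48 h. The 11 class I chain genes had medians of -0.39 and 0.03, beside 0.01 for all tested genes at both times. Between sham and a resected group the log2 fold change is of PHx over sham throughout, from the quasi-likelihood test of edgeR, with p-values adjusted by Benjamini-Hochberg over all tested genes, and a gene is said to rise or fall where the adjusted p is under 0.05.

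Cd74, the invariant chain (ENSMUSG00000024610, GRCm38 chromosome 18, 60803848 to 60812646), had 57.4, 152, 32.9, 53.4 and 36.3 FPKM in sham libraries 1 to 5. The lowest, median and highest levels were 9.71, 14 and 16.7 FPKM in PHx24, and 7.41, 12.6 and 23.8 FPKM (lowest, median, highest) in PHx48. Each resected library lay below every sham library, and sham 2 was far above the other sham libraries. The log2 fold change was -2.29 (edgeR adjusted p = 9.66e-06, SE 0.333) at 24 h, 4.88 times lower, and -2.27 (edgeR adjusted p = 7.29e-06, SE 0.332) at 48 h. Without sham 2 it was -1.72 and -1.70, and without the 4 libraries with other tissue -1.55 and -1.76, still called.

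H2-Aa, the alpha chain of I-A (chromosome 17, 34282744 to 34287827), had 14.6, 47.6, 6.89, 14.2 and 8.26 FPKM in sham 1 to 5. In PHx24 the lowest, median and highest levels were 2.32, 3.2 and 4.14 FPKM, and 1.38, 3.04 and 5.64 FPKM (lowest, median, highest) in PHx48. The groups did not overlap. Against sham, the log2 fold change was -2.51 (edgeR adjusted p = 1.33e-05, SE 0.374) at 24 h and -2.53 (edgeR adjusted p = 8.3e-06, SE 0.374) at 48 h, the largest fall among the members at both times. Without sham 2 the values were -1.76 and -1.79, and without the 4 libraries with other tissue -1.59 and -1.83, still called.

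H2-Ab1, the beta chain that pairs with H2-Aa (chromosome 17, 34263209 to 34269418), had 19.2, 63.2, 10.5, 14.4 and 9.83 FPKM in sham 1 to 5. The lowest, median and highest levels were 3.78, 4.54 and 6.47 FPKM in PHx24, and 3.37, 5.16 and 7.63 FPKM (lowest, median, highest) in PHx48. All 14 resected libraries without etomoxir lay below all 5 sham libraries. On the log2 scale the change was -2.26 (edgeR adjusted p = 3.47e-05, SE 0.366) at 24 h and -2.20 (edgeR adjusted p = 3.6e-05, SE 0.364) at 48 h. It moved to -1.45 and -1.40 without sham 2, and to -1.21 and -1.31 without the 4 libraries with other tissue, and the calls held.

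H2-Eb1, the beta chain of I-E (chromosome 17, 34305877 to 34316199), had 23.5, 44.4, 11.9, 18.2 and 12.2 FPKM in sham 1 to 5. No H2-Ea gene was among the members, so these values describe H2-Eb1 RNA and not an I-E molecule. In PHx24 the lowest, median and highest levels were 3.17, 5.27 and 6.9 FPKM, and 3.72, 4.87 and 9.47 FPKM (lowest, median, highest) in PHx48. The groups did not overlap, and PHx48 3 was the highest resected library. Against sham, the log2 fold change was -2.02 (edgeR adjusted p = 1.66e-05, SE 0.307) at 24 h and -2.05 (edgeR adjusted p = 9.44e-06, SE 0.306) at 48 h. Without sham 2 these were -1.59 and -1.63, and without the 4 libraries with other tissue -1.32 and -1.61, and all 4 were called.

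H2-DMa and H2-DMb1 encode the chains of H2-DM, which removes the placeholder peptide from class II. H2-DMa had 1.98, 3.87, 2.18, 2.02 and 1.21 FPKM in sham 1 to 5, and 0.579, 0.973 and 1.08 FPKM (lowest, median, highest) in PHx24; 0.572, 1.16 and 1.84 FPKM (lowest, median, highest) in PHx48. All PHx24 libraries lay below sham, but 2 of 7 PHx48 libraries lay above the lowest sham library. Its log2 fold change was -1.32 (edgeR adjusted p = 0.00121, SE 0.298) at 24 h and -0.98 (edgeR adjusted p = 0.0108, SE 0.294) at 48 h, and the call at 48 h was lost without sham 2 (log2 fold change -0.69), without the 4 libraries with other tissue (-0.82) and with TPM scaling (-0.47).
H2-DMb1 had 2.03, 6.73, 1.76, 2.39 and 1.85 FPKM in sham 1 to 5, and 0.64, 1.04 and 1.48 FPKM (lowest, median, highest) in PHx24; 0.52, 0.998 and 1.42 FPKM (lowest, median, highest) in PHx48. No PHx24 or PHx48 library reached the sham libraries. Its log2 fold change was -1.51 (edgeR adjusted p = 0.00434, SE 0.399) at 24 h and -1.59 (edgeR adjusted p = 0.00264, SE 0.398) at 48 h. The call at 24 h was lost without sham 2 (log2 fold change -0.94), and both calls were lost without the 4 libraries with other tissue (-0.95 and -1.11).

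Ciita, the class II transactivator (chromosome 16, 10480059 to 10528418), was not tested: it had 0.136, 0.593, 0.137, 0.259 and 0.056 FPKM in sham 1 to 5, 0.0535, 0.112 and 0.146 FPKM (lowest, median, highest) in PHx24, and 0.0594, 0.104 and 0.125 FPKM (lowest, median, highest) in PHx48. Sham 2 again held the highest level, sham 4 was next, and the other 3 sham libraries lay within the PHx24 range. H2-Ob, a chain of the H2-DM modulator H2-O, had 0.506, 0.372, 0.436, 0.489 and 0.193 FPKM in sham 1 to 5, 0.0418, 0.142 and 0.226 FPKM (lowest, median, highest) in PHx24, and 0.0754, 0.212 and 0.248 FPKM (lowest, median, highest) in PHx48. Sham libraries other than 5 lay above every PHx24 library for H2-Ob. The 3 other untested class II chain genes were also low, with at most 0.602 FPKM in any library for H2-DMb2, group means of 0.0348 to 0.105 FPKM for H2-Oa and a mean of 0.0218 FPKM over all libraries for H2-Eb2.

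**Figure D1:**
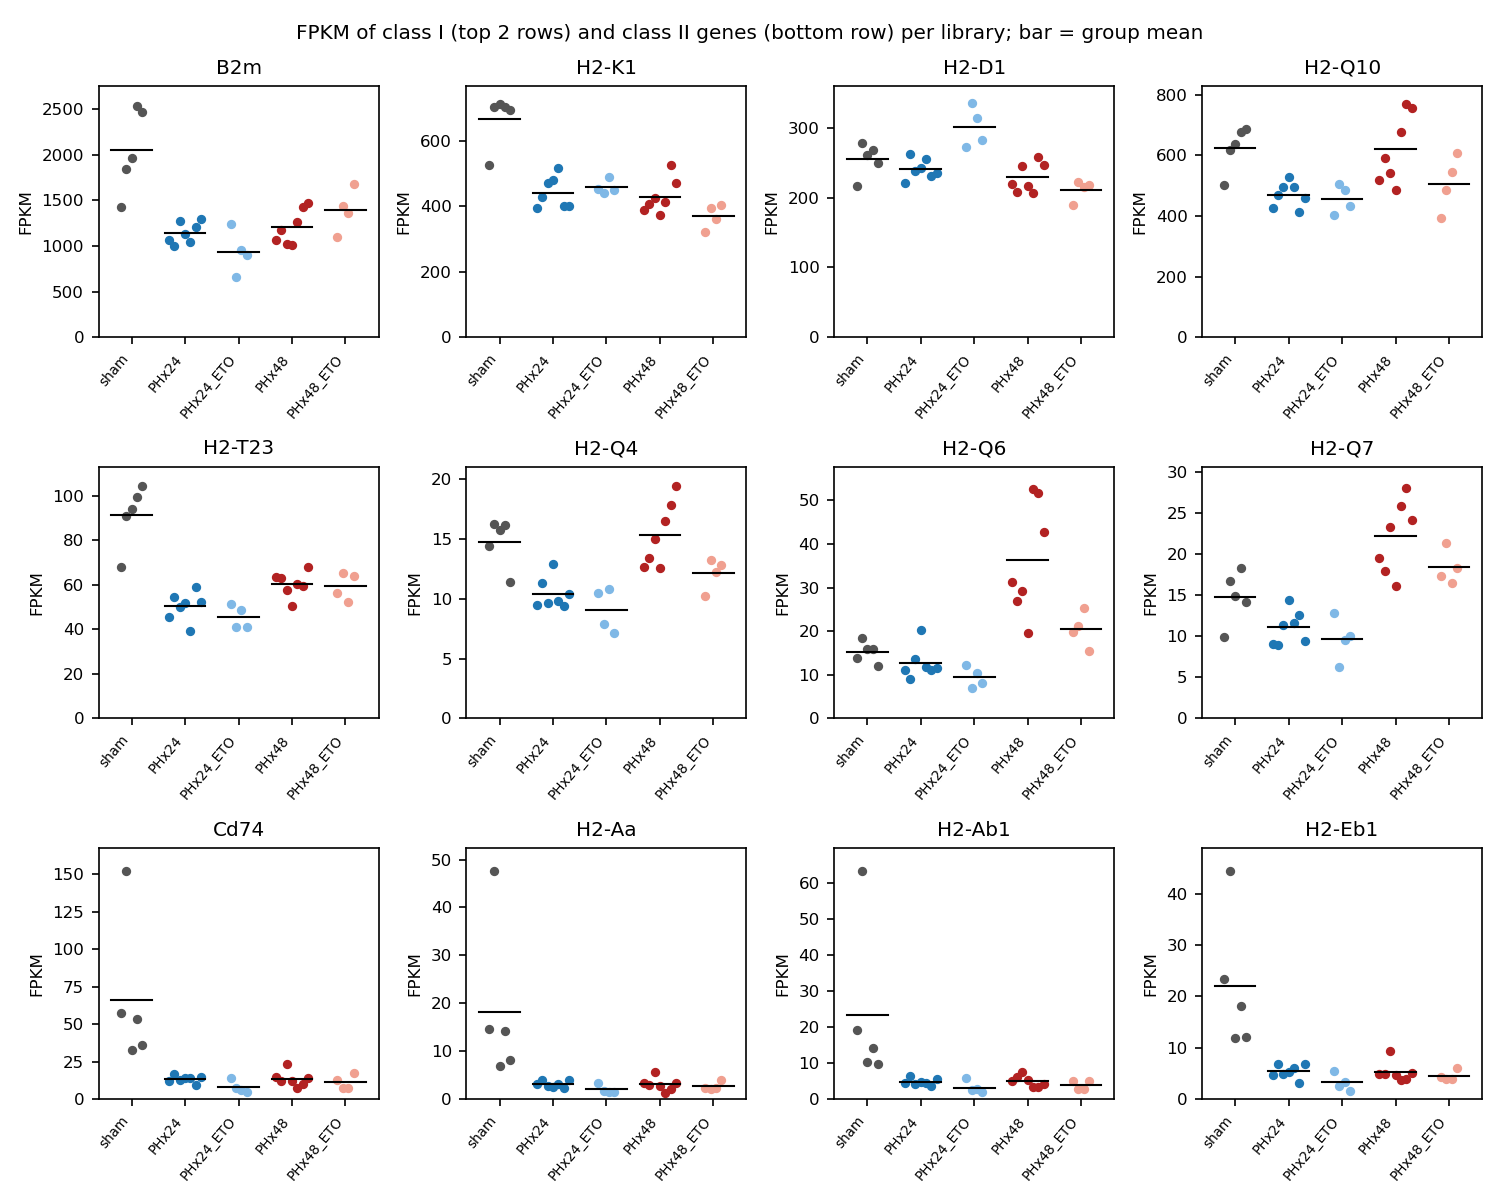
FPKM (linear axis from 0) of 12 members in each of the 27 libraries, by group; points are libraries and bars are group means. The top 2 rows hold class I genes and B2m, the bottom row class II genes and Cd74. Sham 2 reaches 152 FPKM for Cd74, every resected library stays under 24 FPKM, and H2-Q6 rises to 19.7 to 52.6 FPKM in PHx48.

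In bulk liver, fewer cells of a type and less RNA per cell cannot be told apart, so the levels of cells that make class II are given beside these results. The summed level of 12 Kupffer cell markers was 168 to 258 FPKM in sham, 150.2 to 269.9 in PHx24 and 94.6 to 277 in PHx48. Of the 12, 1 rose (Marco) and 0 fell at 24 h, and 1 rose and 5 fell at 48 h, among them Clec4f and Csf1r. Over all tested genes 15.8% fell and 19.1% rose at 24 h, and 17% fell and 19.5% rose at 48 h. The 10 B cell markers summed to 4.41 to 12.8 FPKM in sham, 1.84 to 9.03 in PHx24 and 3.49 to 8.07 in PHx48; only Ighm was tested, and it fell at 24 h (log2 fold change -1.47). The 10 dendritic cell markers summed to 126 to 167 FPKM in sham, 101 to 126 in PHx24 and 98.3 to 139.6 in PHx48, almost all of it Cst3, a cystatin that other cells express as well. Of the others, Itgax, Flt3, Xcr1, Ccr7, Siglech and Cd209a reached at most 0.394 FPKM (Itgax) in any library. The 12 T and NK cell markers summed to 22.4 FPKM in sham 2 and 1.61 to 2.52 in the other sham libraries. They summed to 0.752 to 1.44 FPKM in PHx24 and 0.562 to 1.59 in PHx48, with none tested. The 6 monocyte markers summed to 35.6 to 56.7 FPKM in sham, 26.8 to 83.5 in PHx24 and 13 to 45.5 in PHx48. The 8 markers of sinusoidal endothelial cells, which line the liver's capillaries, summed to 40.2 to 51.4 FPKM in sham, 27.9 to 37.1 in PHx24 and 19.8 to 33.6 in PHx48, with no overlap with sham, and 3 of the 8 fell at 24 h and 7 at 48 h. No marker of the Kupffer, B, dendritic or endothelial cell lists was at 0 in all libraries of a group, while Ifng was at 0 in PHx24. The part of these cells in the class II fall was not tested.

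**Figure D2:**
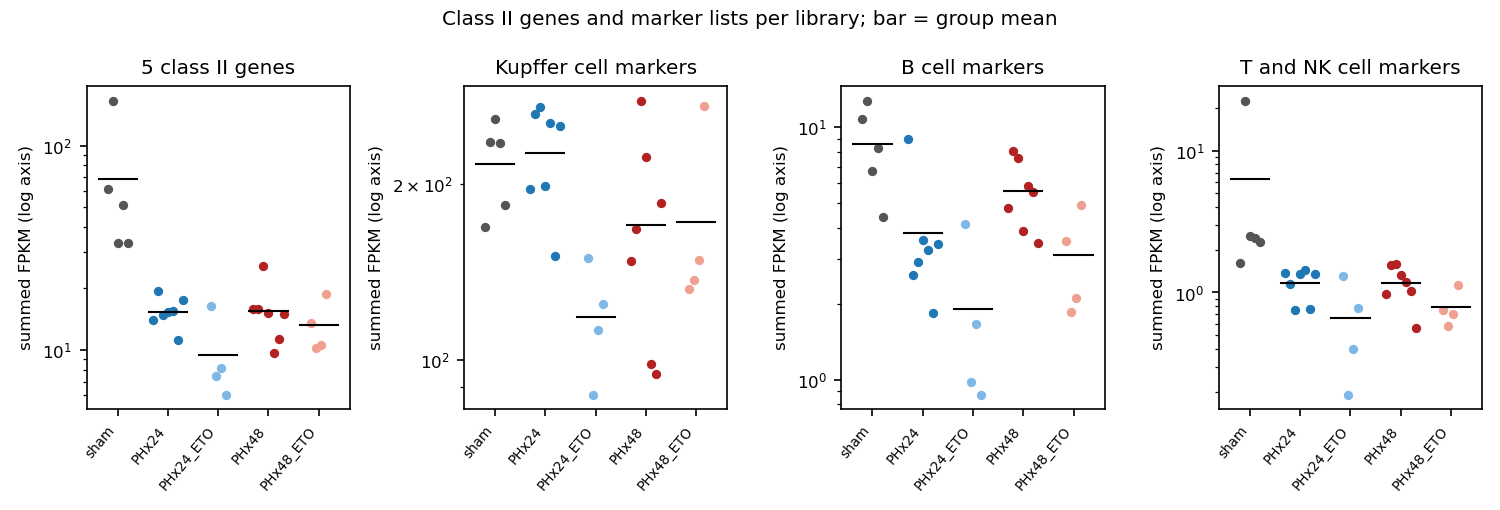
Summed FPKM (log axes) of the 5 tested class II genes and of 3 marker lists in each library; bars are group means. Class II levels separate sham (33.2 to 165.8 FPKM) from PHx24 (11.2 to 19.5 FPKM). Kupffer cell markers of these 2 groups overlap (168 to 258 against 150.2 to 269.9 FPKM). B cell markers overlap in part (4.41 to 12.8 against 1.84 to 9.03 FPKM), and T and NK cell markers do not overlap (1.61 to 22.4 against 0.752 to 1.44 FPKM). For T and NK cell markers only sham 2 lies above 2.52 FPKM.

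Among class I, B2m and the chains H2-K1, H2-T23 and H2-T24 fell at both times, and H2-Q10 and H2-Q4 fell only in the test at 24 h, where the difference between the times was called for these last 2 genes. B2m, the invariant light chain (ENSMUSG00000060802, GRCm38 chromosome 2, 122147686 to 122153083), had 1429, 1845, 1960.0, 2529 and 2474 FPKM in sham 1 to 5. The lowest, median and highest levels were 1006, 1135 and 1302 FPKM in PHx24, and 1007, 1172 and 1476 FPKM (lowest, median, highest) in PHx48. Every PHx24 library and 6 of 7 PHx48 libraries lay below all sham libraries. On the log2 scale the change was -0.81 (edgeR adjusted p = 8.5e-05, SE 0.142) at 24 h and -0.74 (edgeR adjusted p = 0.000191, SE 0.142) at 48 h. The 8 hepatocyte markers summed to 29754, 37856, 38642, 60582 and 65618 FPKM in sham 1 to 5, 23632 to 31820 in PHx24 and 28353 to 40763 in PHx48. Of the 8, 5 fell and 1 rose at 24 h (median log2 fold change -0.58), where 15.8% of tested genes fell and 19.1% rose. At 48 h 4 fell and 0 rose (-0.44), where 17% of tested genes fell and 19.5% rose. Both B2m and the hepatocyte marker sum were lowest in sham 1 and highest in sham 4 and 5 among the sham libraries. The part of hepatocyte RNA in the class I and B2m values was not tested.

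H2-K1, a classical heavy chain (ENSMUSG00000061232, chromosome 17, 33996017 to 34000333), had 528, 703, 712, 705 and 695 FPKM in sham 1 to 5. In PHx24 the lowest, median and highest levels were 394, 428 and 516 FPKM, and 375, 413 and 527 FPKM (lowest, median, highest) in PHx48. Sham 1 was the lowest sham library, and each of the 14 resected libraries still lay below it. Against sham, the log2 fold change was -0.57 (edgeR adjusted p = 3.94e-05, SE 0.0941) at 24 h and -0.62 (edgeR adjusted p = 1.2e-05, SE 0.094) at 48 h.

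H2-D1, the other classical heavy chain (ENSMUSG00000073411, chromosome 17, 35262730 to 35267499), had 216, 278, 261, 267 and 249.8 FPKM in sham 1 to 5. The lowest, median and highest levels were 221, 238 and 262 FPKM in PHx24, and 207, 219.9 and 258 FPKM (lowest, median, highest) in PHx48. Sham and resected libraries overlapped. On the log2 scale the change was -0.06 (edgeR adjusted p = 0.584, SE 0.0782) at 24 h and -0.13 (edgeR adjusted p = 0.183, SE 0.0781) at 48 h, neither called, and both turned positive (0.14 and 0.22, not called) with TPM scaling.

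H2-T23 (chromosome 17, 36029773 to 36032855) had 68.1, 91.2, 94.4, 99.6 and 104 FPKM in sham 1 to 5. In PHx24 the lowest, median and highest levels were 39.1, 51.9 and 59.3 FPKM, and 50.6, 60.2 and 68 FPKM (lowest, median, highest) in PHx48. All resected libraries lay below sham. On the log2 scale the change was -0.84 (edgeR adjusted p = 9.54e-07, SE 0.10) at 24 h, the lowest adjusted p of any member there, and -0.58 (edgeR adjusted p = 5.99e-05, SE 0.10) at 48 h, a call that TPM scaling ended (log2 fold change -0.22).

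H2-Q10, which encodes a class I chain secreted by the liver (ENSMUSG00000067235, chromosome 17, 35470089 to 35474563), had 503, 617, 636, 677 and 686 FPKM in sham 1 to 5. The lowest, median and highest levels were 414, 468 and 527 FPKM in PHx24, and 486, 589.8 and 769.9 FPKM (lowest, median, highest) in PHx48. In 6 of 7 PHx24 libraries the level was below every sham library, while PHx48 spanned the sham range. Against sham, the log2 fold change was -0.39 (edgeR adjusted p = 0.0127, SE 0.119) at 24 h and 0.01 (edgeR adjusted p = 0.971, SE 0.119) at 48 h. The call at 24 h was lost with TPM scaling (log2 fold change -0.18) and with no filter on low genes (-0.37).

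H2-Q6 and H2-Q7, non-classical chains of the Qa group, rose at 48 h. H2-Q6 (chromosome 17, 35424850 to 35430055) had 13.9, 18.4, 15.9, 15.8 and 12 FPKM in sham 1 to 5, 9.08, 11.5 and 20.3 FPKM (lowest, median, highest) in PHx24, and 19.7, 31.4 and 52.6 FPKM (lowest, median, highest) in PHx48. All 7 PHx48 libraries lay above sham, and PHx48 5, 6 and 7 were highest. The log2 fold change at 48 h was 1.26 (edgeR adjusted p = 7.01e-05, SE 0.221), 2.4 times higher, and -0.25 (edgeR adjusted p = 0.386, SE 0.214) at 24 h.
H2-Q7 (chromosome 17, 35439155 to 35443773) had 9.91, 16.7, 14.9, 18.3 and 14.2 FPKM in sham 1 to 5, 8.93, 11.4 and 14.4 FPKM (lowest, median, highest) in PHx24, and 16.2, 23.2 and 28 FPKM (lowest, median, highest) in PHx48. The log2 fold change was 0.60 (edgeR adjusted p = 0.00553, SE 0.165) at 48 h, with 5 of 7 libraries above sham, and -0.40 (edgeR adjusted p = 0.058, SE 0.162) at 24 h. The 24 h value was called by DESeq2 (-0.43), with DESeq2 size factors (-0.43), with only the groups compared (-0.42), and without sham 1 (-0.53) or PHx24 4 (-0.47). Without the 4 libraries with other tissue the call at 48 h was lost (log2 fold change 0.48). H2-Q genes are close copies of each other, so reads may be split or lost between them, and how the authors counted such reads is not given in the sources used here.

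H2-Q4 had 14.4, 16.2, 15.7, 16.2 and 11.4 FPKM in sham 1 to 5, 9.41, 9.79 and 12.9 FPKM (lowest, median, highest) in PHx24, and 12.6, 15 and 19.4 FPKM (lowest, median, highest) in PHx48. In 6 of 7 PHx24 libraries it was below all sham libraries, with a log2 fold change of -0.49 (edgeR adjusted p = 0.00345, SE 0.124) at 24 h that lost its call with TPM scaling, and of 0.07 (edgeR adjusted p = 0.718, SE 0.125) at 48 h. H2-T24 ranged from 1.38 to 2.27 FPKM in sham, 0.651 to 1.25 in PHx24 and 0.679 to 1.35 in PHx48. Its log2 fold change was -0.72 (edgeR adjusted p = 0.0143, SE 0.225) at 24 h and -0.87 (edgeR adjusted p = 0.0034, SE 0.225) at 48 h, and both calls were lost with TPM scaling; the one at 24 h was also lost with no filter on low genes (-0.70) and without the 4 libraries with other tissue (-0.72). H2-Q1 ranged from 1.88 to 5.62 FPKM in sham, 1.31 to 11.3 in PHx24 and 6.03 to 18 in PHx48, and its 48 h value missed the threshold (log2 fold change 1.57 (edgeR adjusted p = 0.0521, SE 0.628)) though all 7 libraries lay above sham. That value was called with all libraries by DESeq2 (1.54), by limma on log2(FPKM + 1) (1.30) and log2(FPKM + 0.1) (1.54), with TPM scaling (1.78) and with only the groups compared (1.55), and also without sham 2 (1.88). H2-T22, a ligand of some gamma delta T cells, ranged from 24.3 to 35.3 FPKM in sham, 25.8 to 34.9 in PHx24 and 30 to 36.7 in PHx48, and H2-M3, which presents formylated peptides, from 1.23 to 2.31, 1.47 to 2.02 and 0.951 to 2.64 FPKM. Neither was called. H2-T22, H2-T23 and H2-T24 overlap the gene span of A930015D03Rik in the annotation. The library kit does not mark strand, so reads from exons that overlapping genes share cannot be told apart.

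None of the other assembly genes or Nlrc5 was called against sham. Tap1 had 5.01, 6.18, 6.85, 4.86 and 3.83 FPKM in sham 1 to 5, 3.97, 4.23 and 6.31 FPKM (lowest, median, highest) in PHx24, and 3.83, 4.33 and 4.67 FPKM (lowest, median, highest) in PHx48. Tap2 had 4.89, 6.75, 6.58, 4.57 and 4.03 FPKM in sham, 3.88, 4.66 and 5.06 FPKM (lowest, median, highest) in PHx24, and 3.85, 4.14 and 4.95 FPKM (lowest, median, highest) in PHx48. The groups of both transporter subunits overlapped, with log2 fold changes at 48 h of -0.31 (edgeR adjusted p = 0.188, SE 0.18) for Tap1 and -0.31 (edgeR adjusted p = 0.0941, SE 0.142) for Tap2, which was called without sham 5 (-0.42).
Tapbp, the peptide loader tapasin, had 21.8, 30.5, 27.6, 21.3 and 22.8 FPKM in sham, 19.6, 22.7 and 26.4 FPKM (lowest, median, highest) in PHx24, and 19.9, 23.4 and 25.8 FPKM (lowest, median, highest) in PHx48. Erap1, the trimming peptidase, had 7.91, 9.43, 8.61, 11 and 10.9 FPKM in sham, 6.97, 7.4 and 9.78 FPKM (lowest, median, highest) in PHx24, and 6.52, 8.1 and 9.84 FPKM (lowest, median, highest) in PHx48. Nlrc5, the class I transactivator (chromosome 8, 94434356 to 94527272), had 2.69, 2.91, 4.0, 2.23 and 1.4 FPKM in sham, 1.89, 2.5 and 3.03 FPKM (lowest, median, highest) in PHx24, and 1.62, 2.34 and 2.65 FPKM (lowest, median, highest) in PHx48. Each of these 3 overlapped sham at both times. Psmb9 overlaps Tap1, Patl2 overlaps B2m, Cast overlaps Erap1, Zbtb22 overlaps Tapbp and 9330175E14Rik overlaps Nlrc5. Tap2, H2-Q4, Cd74 and Ciita also overlap other genes of the table. The same limit of strand applies to these members where exons are shared. Overlap was taken over whole gene spans, and shared exons were not checked.

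**Figure D3:**
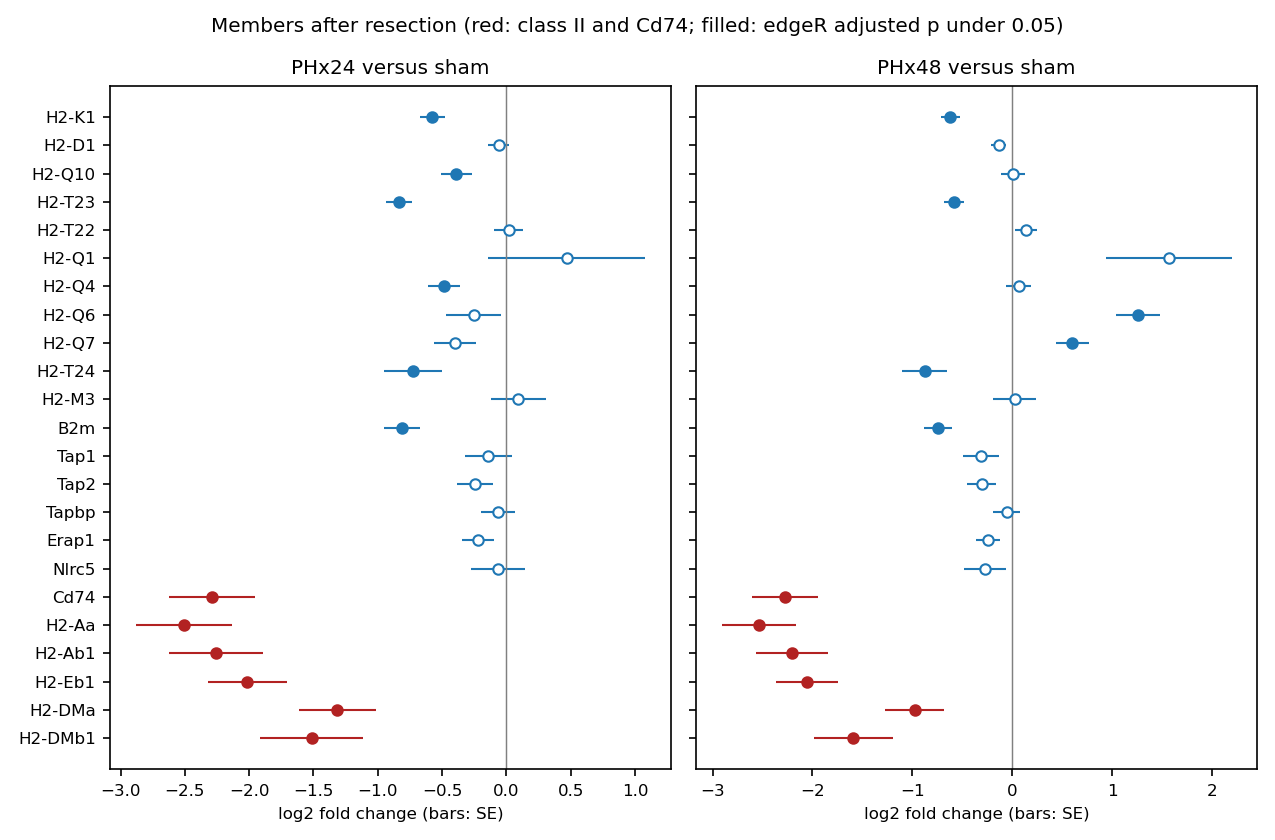
Log2 fold change (points) with its SE (bars) of the 23 tested members, PHx24 over sham at the left and PHx48 over sham at the right; red marks class II genes and Cd74, blue all other members, and filled points an edgeR adjusted p under 0.05. All 6 red points lie at or below -0.98, and the blue points between -0.87 and 1.57.

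Scaling matters for the class I values. With TPM, which fix the total of each library, the median of all tested genes shifted by 0.19 at 24 h and 0.32 at 48 h against sham. The class I median then became -0.18 and 0.35. At 48 h 6 members rose instead of 2, where H2-Q10, H2-Q4, H2-T22 and H2-Q1 were added. By limma with that scaling, 5687 of the 12376 tested genes rose at 48 h, against 2410 in the main test. Relative to that shift, -0.18 lies below the all-gene median at 24 h and 0.35 close to it at 48 h.

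Class I was set against class II over the 5 groups as levels per library. The 11 tested class I chains summed to 1383, 1780, 1788, 1841 and 1814 FPKM in sham 1 to 5. They summed to 1148 to 1390 FPKM in PHx24, 1259 to 1408 in PHx24_ETO, 1222 to 1757 in PHx48 and 1054 to 1390 in PHx48_ETO. Sham 1 overlapped all 4 resected groups, and every resected library lay below the other 4 sham libraries, the nearest being 2 PHx48 libraries at 1676 and 1757 FPKM.
The 5 tested class II chains summed to 61.3, 166, 33.2, 51.2 and 33.3 FPKM in sham 1 to 5. They summed to 11.2 to 19.5 FPKM in PHx24, 6.04 to 16.3 in PHx24_ETO, 9.71 to 25.9 in PHx48 and 10.3 to 18.7 in PHx48_ETO. No resected library reached the lowest sham library.

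The mean log2(FPKM + 1) of the class I chains minus that of the class II chains was 1.79 ± 0.717 for the 5 sham libraries (mean ± SD). It was 2.87 ± 0.156 for the 7 PHx24 and 3.28 ± 0.384 for the 7 PHx48 libraries. With etomoxir it was 3.38 ± 0.302 at 24 h and 3.27 ± 0.302 at 48 h (4 libraries each). The sham libraries ranged from 0.68 to 2.39 and each resected library stood at 2.70 or above. The resected groups overlapped one another. As the members were chosen with earlier results known, these differences are given as values with no test.

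**Figure D4:**
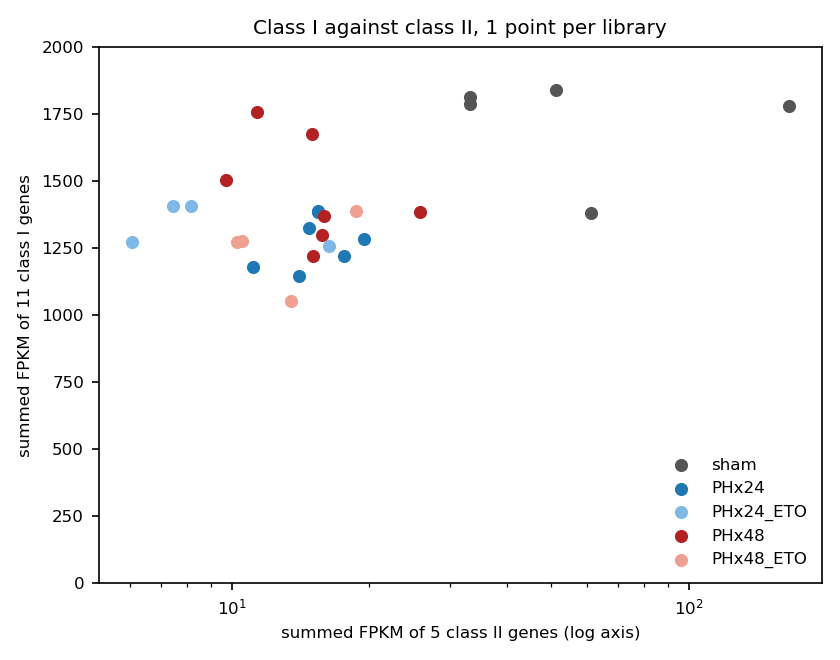
Summed FPKM of the 11 tested class I chains (linear axis from 0) against that of the 5 tested class II chains (log axis), 1 point per library, coloured by group. The 5 sham libraries lie at 33.2 FPKM or more of class II and all resected libraries at 25.9 FPKM or less, while class I levels of sham 1 (1383 FPKM) fall among those of the resected libraries.

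From 24 h to 48 h without etomoxir, 4 members rose and 0 fell, where 6.19% of tested genes rose and 5.41% fell. All 4 were class I chains of the Q region: H2-Q10, H2-Q7, H2-Q6 and H2-Q4. The levels of both groups are given above. The log2 fold change of PHx48 over PHx24 was 1.52 (edgeR adjusted p = 1.24e-05, SE 0.199) for H2-Q6, with 6 of 7 PHx48 libraries above all PHx24 libraries. For H2-Q7 it was 0.997 (edgeR adjusted p = 6.86e-05, SE 0.15), with no overlap between the groups. H2-Q4 showed 0.55 (edgeR adjusted p = 0.00198, SE 0.114) and H2-Q10 0.39 (edgeR adjusted p = 0.0184, SE 0.109), with 5 of 7 libraries above PHx24 for each, and the H2-Q10 call was lost with no filter on low genes. The class I median was 0.26 and the class II median -0.03, beside -0.01 for all tested genes. Cd74 (0.02 (edgeR adjusted p = 0.982, SE 0.306)), H2-Aa (-0.03 (edgeR adjusted p = 0.975, SE 0.347)) and H2-K1 (-0.05 (edgeR adjusted p = 0.79, SE 0.0866)) were not called. H2-T23 (0.26 (edgeR adjusted p = 0.0709, SE 0.0923)) was called without PHx24 6 (0.30) or PHx48 4 (0.29).

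Etomoxir was compared with no etomoxir at the same time after resection. At 24 h, 2 members were called higher and 0 lower, where 1.58% of tested genes were higher and 1.33% lower. H2-D1 had 272, 335, 314 and 282 FPKM in PHx24_ETO 1 to 4, against a lowest, median and highest of 221, 238 and 262 FPKM in PHx24. All 4 treated libraries lay above all PHx24 libraries. The log2 fold change of PHx24_ETO over PHx24 was 0.30 (edgeR adjusted p = 0.0451, SE 0.0831), 1.23 times higher. The call was lost when PHx24 1, 3, 4, 6 or 7 or PHx24_ETO 2, 3 or 4 was left out, with log2 fold changes of 0.25 to 0.34. It was also lost with TPM scaling, with no filter, with edgeR's own filter, with only the groups compared and without the 4 libraries with other tissue (0.28 to 0.32).

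Nlrc5 had 3.65, 7.69, 4.98 and 3.08 FPKM in PHx24_ETO 1 to 4, against a lowest, median and highest of 1.89, 2.5 and 3.03 FPKM in PHx24. All 4 lay above PHx24, and replicate 2 was highest. The log2 fold change of PHx24_ETO over PHx24 was 0.93 (edgeR adjusted p = 0.0222, SE 0.221). Without PHx24_ETO 2 it was 0.62 and no longer called, and the call was also lost without PHx24_ETO 3 (0.92), with TPM scaling (0.77) and with only the groups compared (0.94).

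In that library, PHx24_ETO 2, other members differed as well: B2m (663 FPKM), Tapbp (11.2), Tap1 (2.22), Tap2 (2.87) and Erap1 (4.33) were at their lowest of the 27 libraries, and H2-Q1 (42.6) at its highest. The 14 type I interferon response genes summed to 19.1 FPKM there, the lowest of all libraries, and the adipocyte list to 163.9 FPKM, nearly all of it Cidec, against 12 to 15.5 in the other 3 PHx24_ETO libraries. Their part in these values was not tested. H2-Q1 moved from a log2 fold change of 1.62 (edgeR adjusted p = 0.141, SE 0.615) to -0.13 without it. B2m had 1243, 663, 953 and 905 FPKM in PHx24_ETO 1 to 4, with 3 of 4 libraries below PHx24, and a log2 fold change of -0.30 (edgeR adjusted p = 0.283, SE 0.155). H2-K1 at 452, 439.8, 490.4 and 451 FPKM, H2-Q10 at 404, 504, 484 and 434 FPKM and H2-T23 at 51.6, 40.9, 48.6 and 41.2 FPKM lay within the PHx24 range, except H2-Q10 in 1 library, and were not called.

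The log2 fold changes of the 5 class II chains and Cd74 with etomoxir at 24 h were all negative, and none was called by edgeR. Cd74 had 14, 7.79, 6.53 and 5.18 FPKM in PHx24_ETO 1 to 4, with 3 of 4 below every PHx24 library, and a log2 fold change of -0.71 (edgeR adjusted p = 0.298, SE 0.372). H2-Aa had 3.49, 1.79, 1.6 and 1.48 FPKM, H2-Ab1 5.83, 2.5, 2.8 and 1.98 FPKM and H2-Eb1 5.57, 2.58, 3.4 and 1.71 FPKM. Replicate 1 was the highest in each of these. H2-DMb1 had 0.634, 0.205, 0.0822 and 0.41 FPKM, all 4 below PHx24, with a log2 fold change of -1.62 (edgeR adjusted p = 0.0772, SE 0.51), and H2-DMa 0.825, 0.372, 0.297 and 0.454 FPKM, with -0.88 (edgeR adjusted p = 0.166, SE 0.356).
The class II median was -0.72, against -0.11 for class I and 0.01 for all tested genes. Without PHx24_ETO 1 it was -1.10, and 3 members were then called lower (Erap1, H2-DMa and H2-DMb1). H2-DMb1 was also called by DESeq2. The Kupffer cell markers summed to 149, 87.2, 112 and 124 FPKM in PHx24_ETO 1 to 4, against 150.2 to 269.9 in PHx24. Cd5l was called lower of the 12, where 1.33% of tested genes were lower, and their median log2 fold change was -0.88. B cell markers summed to 4.13, 0.97, 1.66 and 0.87 FPKM in PHx24_ETO 1 to 4, against 1.84 to 9.03 in PHx24. Their part in the class II values was not tested.

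At 48 h no member was called with etomoxir by edgeR, where 0.129% of tested genes were higher and 0.0808% lower. At an unadjusted edgeR p under 0.05 there were 4 of the 23 tested members, all class I chains (H2-Q10, H2-K1, H2-Q6 and H2-Q4). At that threshold there were 1004 of the 12376 tested genes. DESeq2 called 1 member lower, H2-Q6, where it called 36 of the 12376 genes lower. H2-Q6 had 19.8, 21.3, 25.3 and 15.5 FPKM in PHx48_ETO 1 to 4, against a lowest, median and highest of 19.7, 31.4 and 52.6 FPKM in PHx48. The groups overlapped, with 1 of 4 below every PHx48 library. With etomoxir the log2 fold change was -0.82 (edgeR adjusted p = 0.227, SE 0.234). H2-K1 had 321, 396, 362 and 403 FPKM with -0.22 (edgeR adjusted p = 0.613, SE 0.102), and H2-Q10 392, 484, 545 and 606 FPKM with -0.29 (edgeR adjusted p = 0.579, SE 0.129). Of the class II partner, Cd74 had 12.9, 7.89, 7.43 and 17.9 FPKM and -0.25 (edgeR adjusted p = 0.909, SE 0.363). H2-D1 and Nlrc5, called at 24 h, had 189, 223, 216 and 218 and 2.51, 3.27, 2.21 and 2.02 FPKM here, with log2 fold changes of -0.12 (edgeR adjusted p = 0.772, SE 0.0841) and 0.20 (edgeR adjusted p = 0.882, SE 0.226).

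The remaining treated levels at 48 h were 1098, 1434, 1366 and 1675 FPKM for B2m, 56.3, 65.2, 52.3 and 63.9 for H2-T23, 5.23, 2.88, 2.96 and 5.15 for H2-Ab1, and 2.45, 2.13, 2.38 and 3.96 for H2-Aa in PHx48_ETO 1 to 4. B2m was above PHx48 in 1 library, and the class II chains overlapped PHx48. Whether the etomoxir effect differed between the times was tested in the same fit. No member was called by edgeR for the effect at 48 h minus that at 24 h, where 0.0162% of tested genes were higher and 0% lower. At an unadjusted edgeR p under 0.05 there were 5 of the 23 tested members and 1064 of the 12376 tested genes. DESeq2 called 1 member lower, H2-D1, where it called 23 of the 12376 genes lower. H2-D1 had a difference of -0.42 (edgeR adjusted p = 0.26, SE 0.119), Nlrc5 -0.74 (edgeR adjusted p = 0.525, SE 0.32) and H2-DMb1 1.74 (edgeR adjusted p = 0.451, SE 0.669). The effects of the times are therefore not shown to differ.

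**Figure D5:**
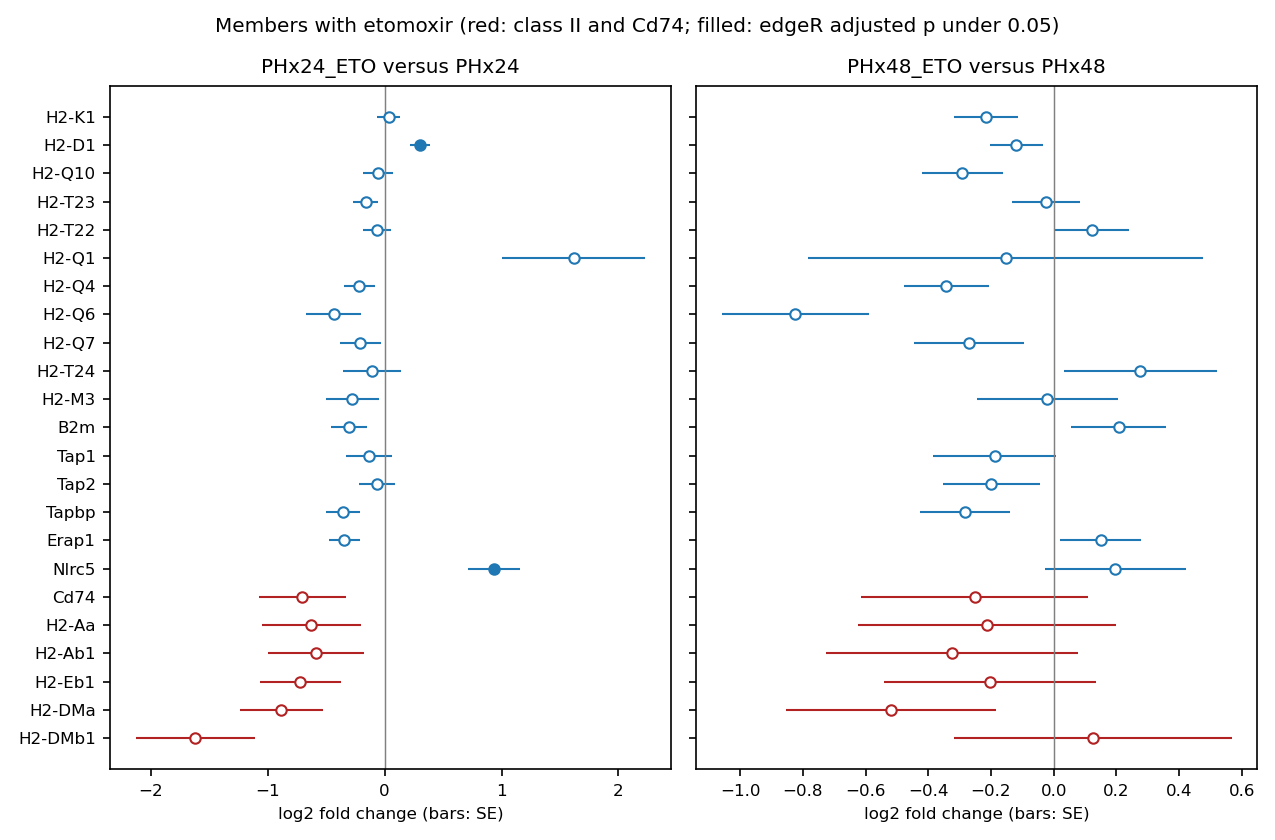
Log2 fold change (points) with its SE (bars) of the 23 tested members, PHx24_ETO over PHx24 at the left and PHx48_ETO over PHx48 at the right; red marks class II genes and Cd74, blue the other members, and filled points an edgeR adjusted p under 0.05. Only H2-D1 (0.30) and Nlrc5 (0.93) are filled, both at 24 h, and the x axes differ in range.

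Genes of the pathway outside the rule were counted by direction. Of 10 immunoproteasome and peptide-loading genes, all tested, 2 rose at 24 h (Calr at 0.78 and Pdia3 at 0.43 on the log2 scale, endoplasmic reticulum chaperones of the loading complex) and 0 fell, beside 19.1% of tested genes that rose, and at 48 h 2 fell (Psmb8 at -0.57 and Psmb10 at -0.44, immunoproteasome subunits). Their median log2 fold changes were -0.12 and -0.05. Of 7 genes of class II processing, Lgmn rose and Sppl2a fell at 24 h, and Ctss, the protease that trims the invariant chain, fell at 48 h (log2 fold change -0.80), with medians of -0.13 and -0.06. With etomoxir at 24 h, Calr and Tapbpl rose in the first list, and Ctsl rose and Ifi30 fell in the second, where 1.58% of tested genes were higher and 1.33% lower.

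Of 18 regulators of MHC transcription, 17 were tested. At 24 h 3 rose (Rela, Rfxank and Nfya) and 3 fell (Irf2, Ifngr2 and Jak2), and at 48 h Irf2 fell (log2 fold change -0.41). Irf1 was not called at either time. Among 11 tested of 15 interferon gamma response genes, 1 rose (Cxcl10) and 7 fell at 24 h, with a median of -0.53, and 5 fell at 48 h, with a median of -0.55. Iigp1, a GTPase of that response, fell by 1.66 and 1.23 on the log2 scale. With etomoxir at 24 h, Iigp1 was called higher (log2 fold change 0.96) and Cxcl10, a chemokine, lower (-2.20). The 15 genes summed to 101.7 to 154.8 FPKM in PHx24_ETO against 79.8 to 98.2 in PHx24, without overlap, while their median log2 fold change was -0.18. At 48 h they summed to 119.4 to 148.6 FPKM in PHx48_ETO against 71.4 to 117.0 in PHx48, also without overlap. None of them was called with etomoxir at 48 h, where the median was 0.05. Of 12 tested of 14 type I interferon response genes, 7 fell at 24 h and 6 at 48 h, with medians of -0.78 and -0.76, among them Irf7 and Ifit1, and none was called with etomoxir at either time. None of the 17 tested genes of the regulator list, which does not hold Nlrc5, was called with etomoxir at either time. The lists were chosen with earlier results known, so the counts are a description beside the 15.8% and 17% of tested genes that fell and the 19.1% and 19.5% that rose.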

How the data were processed

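The deposited table holds, for each of 54532 genes, a raw read count per library and an FPKM value per library, both made by the authors. Per the labels' protocols, RNA was isolated with TRIzol and the NEBNext Ultra kit was used for the libraries. Tools listed in the submitters' processing notes are DESeq2 1.20.0, featureCounts 1.5.0-p3, HISAT2 2.0.5, fastp and CASAVA 1.8, on the builds GRCm38 and mm10. Which annotation release and strand setting were used is not stated in the sources. Checked on the table, the deposited FPKM equal the count over gene length and over a library size chosen to level a typical gene.

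The test took in the 12376 genes that reached 1 FPKM in 4 or more libraries. It used the deposited counts and edgeR 4.0.16 (R 4.3.3), with TMM factors and the quasi-likelihood F test in a single fit of 27 libraries and 5 groups without covariates. P-values were adjusted by Benjamini-Hochberg over those genes, and a call needs an adjusted p below 0.05. Dividing the size of a log2 fold change by the square root of F gave its SE. The biological coefficient of variation was 0.266 and total counts ranged from 14903757 to 18446372. For genes with many counts the spread between libraries then limits precision more than counting error does. For low genes such as H2-DMa and H2-DMb1, counting error matters as well. Libraries of a group correlated at 0.9875 at most, so none looked like a duplicate deposit. Alternatives were DESeq2 1.42.0, DESeq2 size factors, limma 3.58.1 on log2(FPKM + 1), log2(FPKM + 0.1) and log2(TPM + 1), other filters, only the groups compared, a replicate block, and each library left out. Leaving out sham 1, sham 2, PHx24 1 and PHx48 3 together, and the gut epithelium list, were chosen after the data were seen.

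The members, gene lists and tests were chosen with earlier results of these data known. Key members (B2m, the main class I and II chains, Cd74, the assembly genes and the regulators) and members called with etomoxir are named with their values, and every other member is accounted for. H2-Q and H2-T chains outside that rule were named after their values were seen. On simulated data with known changes in the PHx24 and sham comparison (12376 genes), 61 of 67 genes changed by 2 on the log2 scale were recovered, 53 of 67 changed by 1 and 19 of 66 changed by 0.5. Only those genes were changed, while 2366 genes were called higher and 1960 lower in the real comparison. The adjusted p depends on how many genes change, so this recovery need not carry over to the real comparison. RefSeq promoters (GRCm38.p6) were searched for fixed motifs.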

Additional observations from a re-analysis of the deposited data

Results flagged for a closer look

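In groups of 4 to 7 libraries, the highest or lowest library of each key member was examined on log2(FPKM + 1). It was picked out where its gap to its neighbour took an unusually large share of the group's range. The check covered Ciita but not H2-Q1, H2-Q4, H2-Q6, H2-Q7, H2-T22, H2-T24 or H2-M3. There were 4 such values among 85 groups tested, and chance alone gives about 1 in 20 groups. H2-K1 stood at 527.512 FPKM in sham 1, below the next sham library at 694.8 FPKM. Tapbp stood at 11.2 FPKM in PHx24_ETO 2, below the next at 20.5 FPKM. H2-Eb1 stood at 9.468 FPKM in PHx48 3, above the next at 5.16 FPKM. H2-DMb1 stood at 6.735 FPKM in sham 2, above the next at 2.39 FPKM. Sham 1, sham 2 and PHx48 3 are among the 4 libraries with transcripts of other tissues, and the part of those transcripts was not tested. In PHx24_ETO 2 the 6 adipocyte markers summed to 163.9 FPKM, against 12 to 15.5 in the other 3 PHx24_ETO libraries, with Cidec at 163.6 FPKM and Lep at 0.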

How the results depend on the processing

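No called result changed direction. In every alternative run, H2-K1, B2m, Cd74, H2-Ab1, H2-Aa and H2-Eb1 stayed called lower than sham at both times, H2-T23 and H2-DMa at 24 h, and H2-Q6 higher at 48 h. H2-Q4, H2-Q6 and H2-Q7 stayed called higher at 48 h than at 24 h. With TPM scaling the class I median was -0.18 (PHx24 over sham), 0.35 (PHx48 over sham) and 0.41 (PHx48 over PHx24). The class II median at 48 h was then -1.43. With that scaling 6 members were higher at 48 h than sham, where 5687 of 12376 tested genes were higher. Without the 4 libraries with other tissue the class II median was -1.21 at 24 h and -1.31 at 48 h, and 1 member was higher at 48 h. Leaving out 1 library at a time, the class II median ran from -2.19 to -1.45 at 24 h and from -2.29 to -1.40 at 48 h, the least negative values being those without sham 2. For etomoxir at 24 h, members called higher were 0 with TPM or with only the groups compared, 1 with no filter, with edgeR's own filter or without the 4 libraries, and 0 to 2 with 1 library left out. Members called lower were 1 with DESeq2 or limma on log2(FPKM + 0.1), and 0 to 3 with 1 library left out, the class II median then running from -1.10 to -0.51. DESeq2 called 1 member lower at 48 h with etomoxir, where it called 36 of 12376 tested genes lower. For the difference between the times it called 1 member lower, where it called 23 of 12376 genes lower. The class II median of that difference ran from 0.18 to 0.79 with 1 library left out. The class I minus class II value with etomoxir at 24 h, 0.51 on log2(FPKM + 1), was 0.87 on log2(FPKM + 0.1) and 0.86 from summed FPKM. The causes were not tested.

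Replicate numbers were not treated as pairs in the main test. Of 45 same-number pairs 13 correlated over 0.1 (lowest -0.23, median 0.02, highest 0.655), and 5 of 27 libraries correlated best with their own number. Genes detected fell with the replicate number in sham (21763 in replicate 1, 18981 in replicate 5), PHx24_ETO and PHx48_ETO, but not steadily in PHx24 and PHx48. What the number stands for was not tested. With the replicate block, members called lower than sham were 11 at 24 h and 10 at 48 h, 3 were higher at 48 h, 5 rose from 24 h to 48 h, and with etomoxir at 24 h 0 were higher and 1 lower (H2-DMb1). Class II levels in resected livers lie near 1 FPKM for the H2-DM genes, where few counts limit what a test can show.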

Other observations

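Class I-like genes outside the H2 names moved as well. Of 6 listed, 4 were tested. Azgp1, a secreted zinc-binding relative of class I, had a median of 917 FPKM in sham, 535 in PHx24 and 463 in PHx48, and fell at both times (log2 fold change -0.77 and -1.09). Fcgrt, the neonatal Fc receptor that pairs with B2m, fell by 0.54 and 0.77 on the log2 scale. Cd1d1, which presents lipids, fell at 48 h (-0.46). Hfe, a regulator of hepcidin that also pairs with B2m, rose at 24 h (0.41) and was lower with etomoxir at 24 h (-0.41). The calls are edgeR's, beside 15.8% of tested genes that fell at 24 h and 17% at 48 h. At 24 h 19.1% of tested genes rose, and 1.33% were lower with etomoxir.

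H2-Q2 and H2-T3 exceeded 1 FPKM only in sham 2, at 22.1 and 5.13 FPKM. H2-T3 is the thymus leukaemia antigen, known from gut epithelium. In the other 4 sham libraries H2-Q2 had 0.325, 0.819, 0.283 and 0.559 FPKM, and H2-T3 was listed at 0. Sham 2 also held the highest sham levels of Vil1 (28.1 FPKM) and Cdh17 (14.1 FPKM), genes of gut epithelium, where the sham medians were 0.0429 and 0.0264 FPKM.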
